A study of Homo sapiens with 8 samples.

Results

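The RNA levels of 9 genes that make, move or consume aspartate, asparagine, glutamate and glutamine were followed in breast cancer cells deprived of arginine. They were taken by name from the table of read counts, which holds 23393 genes, and all 9 were among the 15262 genes that passed the expression filter and were tested. They are ASNS and GLUL, which form asparagine and glutamine, GOT1, GOT2, MDH1 and MDH2, the enzymes of the malate-aspartate shuttle, SLC1A3, which carries aspartate and glutamate across the plasma membrane, and GLUD1 and GPT2, which interconvert glutamate and 2-oxoglutarate.

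The study asked how MDA-MB-231 cells respond to arginine starvation and whether the response needs functional mitochondria. This established human breast cancer line has no hormone receptors and very little ASS1, the enzyme that joins citrulline and aspartate on the way to arginine. RNA-seq covered 4 groups of 2 libraries each, namely parental control cells, parental starved cells, ρ0 control cells and ρ0 starved cells. Starved cells were sampled at 48 h, and their labels give treatment with the arginine-degrading enzyme arginine deiminase at 0.3 µg/mL in full medium, whereas the study's text describes arginine-starved medium, which its methods prepare with dialyzed serum. Parental control cells were untreated MDA-MB-231 cells in full medium. The ρ0 line was derived from MDA-MB-231 by depletion of mitochondrial DNA, and both ρ0 groups come from clone 27 only. According to the methods, the ρ0 line was kept with pyruvate, uridine and ethidium bromide, which were not listed for the parental line. A difference between the lines can therefore not be told apart from a difference between clones or media. The ρ0 libraries also held more ASS1 counts than the parental libraries, as given below. Whether both lines were starved of arginine to the same degree was not tested. Genes of the mitochondrial genome were not analysed here, so the depletion itself was not checked in these counts.

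Aspartate is made from oxaloacetate by transamination with glutamate. The malate-aspartate shuttle carries the electrons of cytosolic NADH into mitochondria, using a cytosolic and a mitochondrial form each of malate dehydrogenase and aspartate aminotransferase. In cells with a failing respiratory chain, aspartate supply is known to limit proliferation, which is why such cells are often given pyruvate. ASNS spends aspartate, glutamine and ATP to make asparagine, and it is a well-known target of ATF4, the transcription factor of the amino acid response.

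The 8 libraries held between 25259503 and 31022155 counts. The biological coefficient of variation between the 2 libraries of a group was 5.18% in parental control cells, 2.25% in parental starved cells, 25.1% in ρ0 control cells and 1.84% in ρ0 starved cells, so the 2 ρ0 control libraries stood apart from each other. For the genes named at the start, values that rest on these 2 libraries are given below with each left out where that matters. For any other gene, including ATF4, fold changes were not recomputed in this way. The mesenchymal markers VIM, CD44 and AXL had at least 13053 counts in every library, while ESR1 reached at most 6 counts and PGR at most 1. CDH1 and EPCAM, epithelial genes, were at 0 to 2 and 0 to 15 counts in parental libraries but at 104 to 457 and 397 to 697 counts in ρ0 libraries, and the part of this in differences between the lines was not tested. Nothing in the labels says whether 2 libraries of a group came from separate cultures, so p-values measure the spread between these libraries, which may be technical. Levels are given in CPM, counts relative to the TMM-scaled total of the library, differences as log2 fold changes with standard errors (SE), and adjusted p-values come from edgeR's quasi-likelihood test with Benjamini-Hochberg adjustment over all tested genes. In bulk RNA, fewer cells that express a gene and less RNA per cell cannot be told apart.

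The promoters of ASNS, GOT1 and SLC1A3 are shown because they hold the letters TGATGNAA, the core of the composite C/EBP-ATF element through which ATF4 is known to act on ASNS. Each runs from 250 bases before to 50 bases after a RefSeq transcription start on GRCh38.p14, 5′ to 3′ on the gene's own strand, and capitals mark the match, with its position given relative to the start. The ASNS window is chr7:97872359-97872658 on the minus strand, and its match begins at -68 in the sense direction. The GOT1 window is chr10:99430575-99430874 on the minus strand, with an antisense match at -198. The SLC1A3 window is chr5:36596338-36596637 on the plus strand, with a sense match at -220.
ASNS: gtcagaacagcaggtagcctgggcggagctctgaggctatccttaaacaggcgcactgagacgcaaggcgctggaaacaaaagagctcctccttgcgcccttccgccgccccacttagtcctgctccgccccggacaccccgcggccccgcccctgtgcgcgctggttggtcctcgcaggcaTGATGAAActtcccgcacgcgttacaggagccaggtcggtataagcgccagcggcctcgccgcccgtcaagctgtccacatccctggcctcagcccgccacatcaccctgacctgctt
GOT1: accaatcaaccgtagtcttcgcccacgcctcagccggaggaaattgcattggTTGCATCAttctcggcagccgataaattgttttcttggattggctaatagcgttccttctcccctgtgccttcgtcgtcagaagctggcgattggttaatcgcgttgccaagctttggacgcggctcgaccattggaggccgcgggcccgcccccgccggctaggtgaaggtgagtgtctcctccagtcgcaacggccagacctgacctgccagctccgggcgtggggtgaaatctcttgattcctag
SLC1A3: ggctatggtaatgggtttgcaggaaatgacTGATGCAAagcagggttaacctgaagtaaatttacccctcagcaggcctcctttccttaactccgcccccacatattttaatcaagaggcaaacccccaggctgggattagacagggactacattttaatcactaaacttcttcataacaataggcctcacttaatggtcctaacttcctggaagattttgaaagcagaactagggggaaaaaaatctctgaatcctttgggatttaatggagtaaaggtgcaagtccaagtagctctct
Both strands were searched, and 1270 of 35116 RefSeq promoter windows of this length (3.62%) held a match. Promoter entries were found for 8 of the 9 genes, GPT2 being without one, and 3 of these 8 had a match in at least 1 window. This is a share of genes, some with several windows, and is not comparable with the share of windows above. The other start of ASNS and the other starts of SLC1A3 had none, and none was found for GOT2, MDH1, MDH2, GLUD1 or GLUL, which says only that these letters are not in these windows.

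Arginine starvation raised 5 of the 9 genes and lowered 3 in parental cells, whereas in ρ0 cells it raised 3 and lowered 2. In parental cells ASNS, GPT2, GOT2, GLUD1 and GLUL rose, and MDH1, SLC1A3 and GOT1 fell. In ρ0 cells ASNS, GPT2 and GLUD1 rose, and MDH1 and SLC1A3 fell. Over all tested genes 30.4% were higher and 35.5% lower in parental cells, and 19.2% were higher and 22.1% lower in ρ0 cells. With the study's additional threshold of a log2 fold change above 1 or below -1, ASNS was higher and MDH1 and SLC1A3 lower in parental cells, and ASNS and GPT2 were higher in ρ0 cells. By that rule 12.7% of all tested genes were higher and 22.1% lower in parental cells, against 4.22% and 8.19% in ρ0 cells. The median log2 fold change of the 9 genes was 0.41 in parental and 0.11 in ρ0 cells, beside -0.07 and -0.02 over all tested genes.

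**Figure D1:**
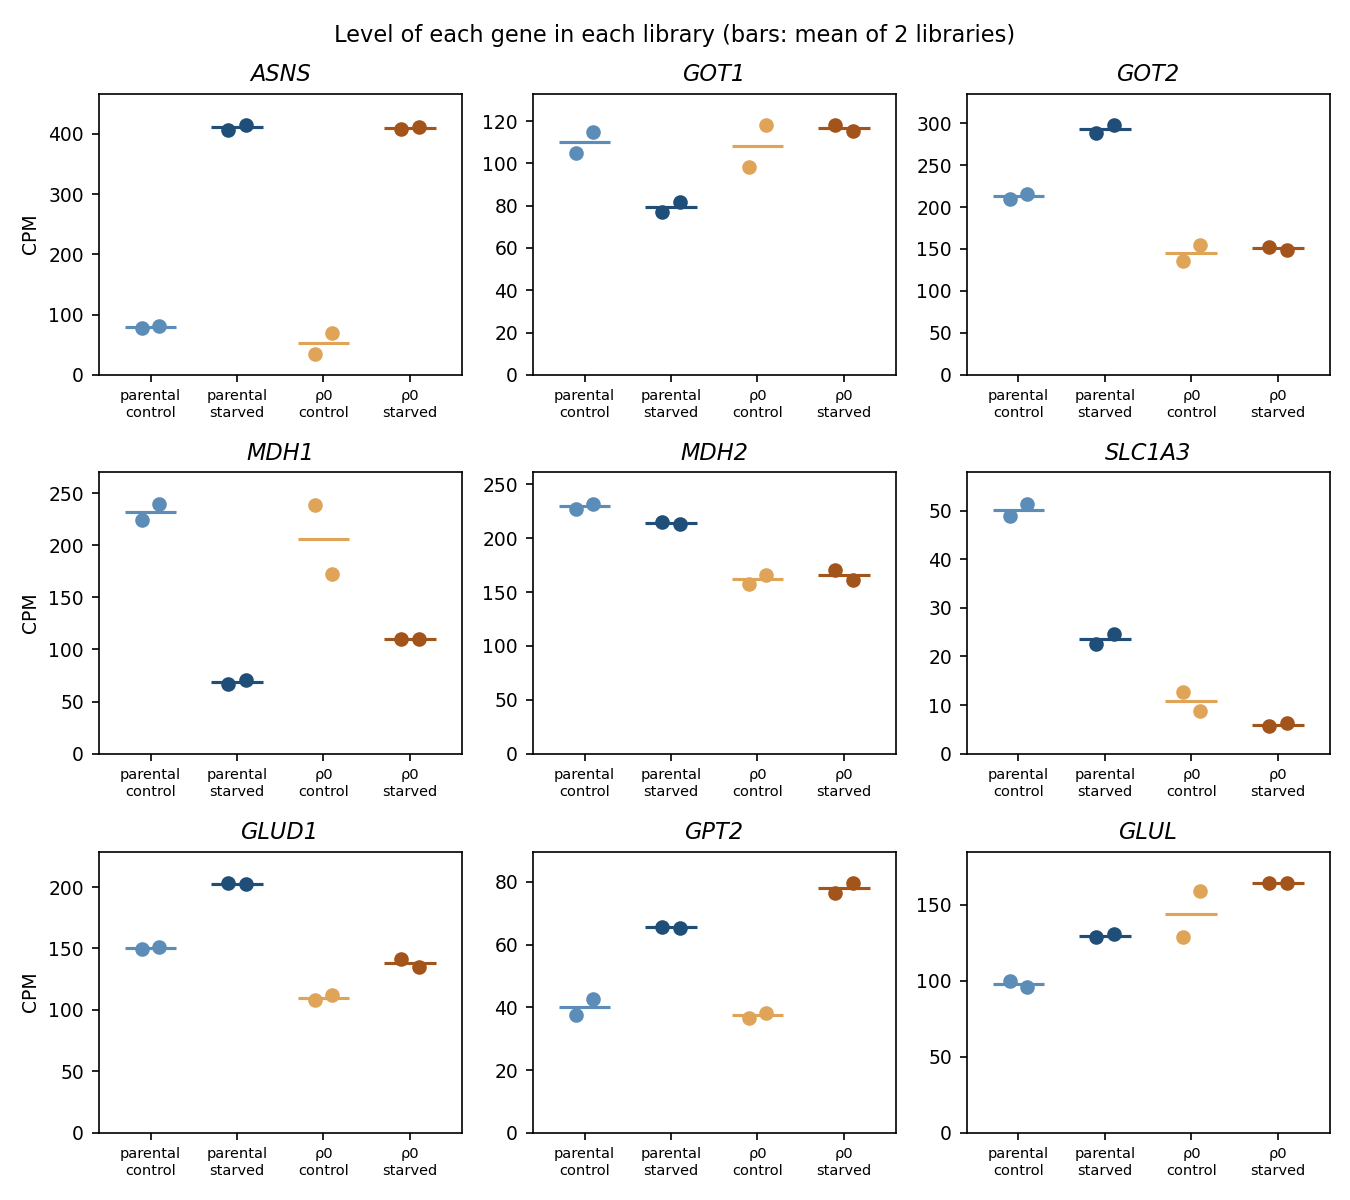
Level of each of the 9 genes in CPM (vertical axes, each from 0) in the 8 libraries, grouped as parental control, parental starved, ρ0 control and ρ0 starved cells, with points for libraries and bars for the mean of 2. ASNS lies at 411 CPM in both starved groups, SLC1A3 falls from 50.2 CPM in parental control to 6.0 CPM in ρ0 starved cells, and the 2 ρ0 control libraries lie apart for ASNS and MDH1.

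ASNS, asparagine synthetase, was the gene with the largest rise among the 9 in either line. Its level was 77.9 and 81.1 CPM in parental control libraries, 407 and 415 CPM in parental starved libraries, 34.8 and 69.8 CPM in ρ0 control libraries and 409 and 412 CPM in ρ0 starved libraries. Every starved library was thus far above every control library, and the 4 starved libraries lay within a narrow band whatever the line. In parental cells the rise was 5.17-fold (log2 fold change 2.37, SE 0.28, adjusted p = 2.07e-04), and in ρ0 cells it was 7.84-fold (2.97, SE 0.28, adjusted p = 3.42e-04). The ρ0 value depended on the 2 differing control libraries, being 2.56 without ρ0 control library 1 and 3.57 without ρ0 control library 2.

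Between the 2 starved groups the log2 difference in ASNS, ρ0 minus parental, was -0.0021, with a 95% confidence interval from -0.61 to 0.61 (adjusted p = 0.997). In full medium ρ0 cells had less ASNS on average, 52.3 ± 24.7 against 79.5 ± 2.28 CPM (SD, n = 2), a log2 difference of -0.60 that did not pass the test (adjusted p = 0.0838). It passed with DESeq2 (-0.59, adjusted p = 0.0435), with limma-voom and a weight for each group (-0.68, adjusted p = 0.0113), and without ρ0 control library 1 (-0.19, adjusted p = 0.00381) or 2 (-1.14, adjusted p = 5.09e-12). The difference between the responses, ρ0 minus parental, was 0.60 with an interval from -0.27 to 1.47 (adjusted p = 0.236). Leaving out either ρ0 control library took this difference past the threshold, at 0.19 (adjusted p = 0.0156) without library 1 and at 1.16 (adjusted p = 1.88e-10) without library 2 (the spread between these libraries is then out of the estimate). It also passed with limma-voom and a weight for each group, at 0.68 (adjusted p = 0.0161). The order of the groups was parental starved, ρ0 starved, parental control and ρ0 control, and with all 8 libraries in edgeR's test the step from ρ0 starved to parental control exceeded the spread (adjusted p = 1.87e-04), whereas the step from parental control to ρ0 control passed only under the settings just given.

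ATF4, the regulator of ASNS named above and no member of the set, was at 159 and 163 CPM in parental control libraries and at 543 and 537 CPM in parental starved libraries. In ρ0 cells it was at 144 and 201 CPM in control and at 322 and 319 CPM in starved libraries. ATF4 rose in both lines, by 1.75 in parental cells (SE 0.15, adjusted p = 4.68e-05) and by 0.89 in ρ0 cells (SE 0.14, adjusted p = 0.00254), and its response was smaller in ρ0 cells by 0.85 (adjusted p = 0.0136). ASNS and ATF4 thus differed in the starved cells, since ASNS averaged 411 CPM in both lines while ATF4 was lower in ρ0 cells by 0.75 (adjusted p = 0.0023).

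The 5 genes whose log2 CPM followed ASNS most closely over the 8 libraries, out of 9950 tested genes with a mean of at least 10 CPM, were CHAC1 (Pearson r = 0.993), OTUD6B (0.993), ZNF581 (0.991), C6orf48 (0.990) and MLLT6 (0.989). The points are 4 control and 4 starved libraries, so r here mostly describes that split, and no test is given. CHAC1, a glutathione-degrading enzyme, averaged 16.8 CPM in parental control, 74.9 CPM in parental starved, 14.9 CPM in ρ0 control and 82.8 CPM in ρ0 starved cells. C6orf48 went from 159 to 476 CPM in parental cells and from 150 to 436 CPM in ρ0 cells. Among the 9 genes themselves GPT2 had the highest r with ASNS, 0.96, and MDH1 the lowest, -0.91.

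GLUL, glutamine synthetase, which joins ammonia to glutamate, changed little in comparison. It was at 99.4 and 95.8 CPM in parental control, 128 and 130 CPM in parental starved, 129 and 159 CPM in ρ0 control and 164 and 164 CPM in ρ0 starved libraries. In parental cells the starved libraries were both above the controls, by 1.33-fold (log2 fold change 0.41, SE 0.10, adjusted p = 0.01), a call that was lost without parental control library 2 (adjusted p = 0.0684) or without either starved library (0.0512 and 0.06), and with scaling by total counts (0.25, adjusted p = 0.0824). In ρ0 cells the log2 fold change was 0.19 (95% confidence interval -0.05 to 0.43, adjusted p = 0.179). It was 0.05 without ρ0 control library 1 and 0.36 (adjusted p = 7.37e-06) without library 2. In full medium GLUL was the only one of the 9 that was higher in ρ0 than in parental cells, by 0.56 (SE 0.10, adjusted p = 0.00243).

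The aminotransferases GOT1, in the cytosol, and GOT2, in mitochondria, moved in opposite directions in starved parental cells. GOT1 was at 105 and 115 CPM in parental control and at 77.1 and 81.6 CPM in parental starved libraries, a fall of 1.39-fold (log2 fold change -0.47, SE 0.11, adjusted p = 0.00527). GOT2 was at 209.8 and 216 CPM in parental control and at 288 and 298 CPM in parental starved libraries, a rise of 1.38-fold (0.46, SE 0.087, adjusted p = 0.00224). For neither gene did control and starved parental libraries overlap.

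In ρ0 cells GOT1 was at 98.3 and 118 CPM in control and at 118 and 116 CPM in starved libraries, and GOT2 at 135 and 155 CPM in control and at 152 and 149 CPM in starved libraries. The starved values lay within or at the edge of the range of the ρ0 controls for both genes, with log2 fold changes of 0.11 (95% confidence interval -0.13 to 0.35, adjusted p = 0.435) and 0.05 (-0.15 to 0.26, adjusted p = 0.661). Both signs turned without ρ0 control library 1, and both genes passed the test as higher without ρ0 control library 2 (adjusted p = 0.00118 for GOT1 and 0.0073 for GOT2). The responses of the 2 lines differed for GOT1 by 0.58 (SE 0.15, adjusted p = 0.0184) and for GOT2 by -0.41 (SE 0.12, adjusted p = 0.0327). Leaving out parental control library 2, or any of the 4 starved libraries, ended both calls, with adjusted p from 0.0602 to 0.0831 for GOT1 and from 0.0896 to 0.13 for GOT2, and leaving out parental control library 1 ended that of GOT2 (0.11). Without ρ0 control libraries 1 and 2 the differences were 0.46 and 0.69 for GOT1 and -0.50 and -0.33 for GOT2, all past the threshold. The call for GOT2 was also lost with upper-quartile scaling (adjusted p = 0.0816) and with total counts (0.0813).

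The malate dehydrogenases also changed unequally, with a strong fall of the cytosolic enzyme in both lines. MDH1 was at 224 and 240 CPM in parental control, 67.0 and 71.2 CPM in parental starved, 239 and 172 CPM in ρ0 control and 110 and 109.6 CPM in ρ0 starved libraries. In each line the starved libraries were below both controls, by 3.36-fold in parental cells (log2 fold change -1.75, SE 0.15, adjusted p = 5.07e-05) and by 1.87-fold in ρ0 cells (-0.90, SE 0.15, adjusted p = 0.00264). The fall was smaller in ρ0 cells by 0.84 on the log2 scale (SE 0.20, adjusted p = 0.0152). This difference was 0.80 (adjusted p = 0.0621) without parental control library 2, 0.81 (0.0658) and 0.89 (0.0521) without parental starved libraries 1 and 2, and 0.82 (0.0655) and 0.83 (0.0613) without ρ0 starved libraries 1 and 2. The ρ0 control libraries moved it most, to 1.10 without library 1 and 0.60 without library 2, and the ρ0 fall itself was then -0.65 and -1.11, each still past the threshold.

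MDH2, the mitochondrial form, which also serves the TCA cycle, was at 227 and 232 CPM in parental control and at 215 and 213 CPM in parental starved libraries. In ρ0 cells it was at 158 and 166 CPM in control and at 170 and 161 CPM in starved libraries. Its log2 fold change was -0.10 in parental cells (95% confidence interval -0.27 to 0.07, adjusted p = 0.264) and 0.04 in ρ0 cells (-0.14 to 0.21, adjusted p = 0.737). Scalings that moved the median of all genes lower in the parental comparison, by -0.12 with the upper quartile and by -0.16 with total counts, made the parental value significant at -0.22 (adjusted p = 0.0328) and -0.26 (0.0174). Without ρ0 control library 1 the parental value stayed at -0.10 but passed the threshold, with the spread between the ρ0 control libraries out of the estimate.

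A ratio of 2 genes within a library does not depend on the scaling between libraries. The log2 ratio of GOT1 to GOT2 counts was -0.999 and -0.909 in parental control and -1.90 and -1.87 in parental starved libraries, but -0.46 and -0.39 in ρ0 control and -0.36 and -0.37 in ρ0 starved libraries. It thus shifted by -0.93 with starvation in parental cells and by 0.06 in ρ0 cells. The log2 ratio of MDH1 to MDH2 counts went from -0.02 and 0.05 to -1.68 and -1.58 in parental cells and from 0.60 and 0.05 to -0.63 and -0.55 in ρ0 cells, shifts of -1.65 and -0.92. The ρ0 shift was -0.65 without ρ0 control library 1 and -1.19 without library 2. Permuting treatment within each line allows 36 arrangements and no p-value below 0.0556. The exact two-sided permutation test reached this limit for MDH1 over MDH2 (mean shift -1.28, p = 0.0556) and gave p = 0.333 for GOT1 over GOT2 (mean shift -0.44). It tests the mean of the shifts of both lines. For GOT1 over GOT2 these had opposite signs, so that p-value does not judge the parental shift of -0.93 alone. The ratios compare changes and not levels, since the transcripts differ in length.

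**Figure D2:**
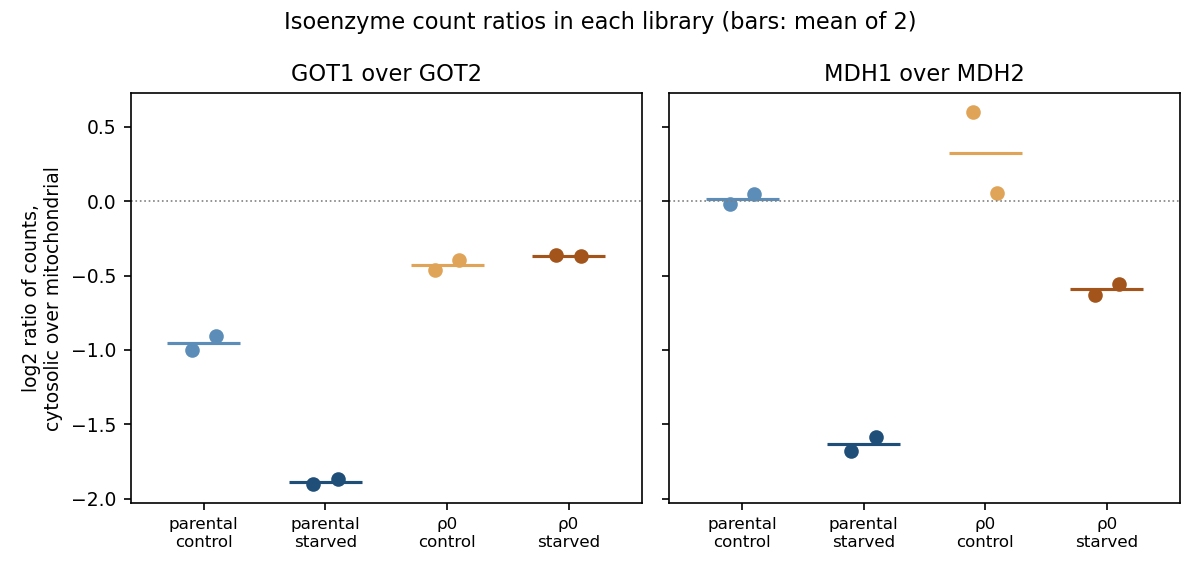
Log2 ratio of the counts of the cytosolic over the mitochondrial enzyme (vertical axis) for GOT1 over GOT2 and for MDH1 over MDH2 in each of the 8 libraries, with bars for the mean of 2. In parental cells both ratios fall with starvation, by 0.93 and 1.65, and in ρ0 cells the ratio of MDH1 to MDH2 falls by 0.92 while that of GOT1 to GOT2 changes by 0.06.

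SLC1A3, the plasma membrane transporter of glutamate and aspartate also known as EAAT1, had the largest log2 difference between the lines among the 9 genes. It was at 49.0 and 51.4 CPM in parental control and at 22.5 and 24.7 CPM in parental starved libraries, and at 12.8 and 8.8 CPM in ρ0 control and at 5.7 and 6.3 CPM in ρ0 starved libraries. No 2 groups overlapped, and each step in the order parental control, parental starved, ρ0 control and ρ0 starved exceeded the spread (adjusted p = 8.26e-04, 6.13e-04 and 0.0088). In full medium the level in ρ0 cells was 4.66-fold lower (log2 difference -2.22, SE 0.17, adjusted p = 3.43e-05), and between starved cells it was 3.94-fold lower (-1.98, SE 0.18, adjusted p = 5.95e-05).

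Starvation lowered SLC1A3 by 2.13-fold in parental cells (log2 fold change -1.09, SE 0.17, adjusted p = 8.26e-04) and by 1.80-fold in ρ0 cells (-0.85, SE 0.18, adjusted p = 0.0088). The ρ0 call was lost without ρ0 starved library 1 (-0.76, adjusted p = 0.08) or 2 (-0.90, adjusted p = 0.0514), in a fit to the 4 ρ0 libraries alone (-0.83, adjusted p = 0.0729) and with limma-voom and group weights (-0.82, adjusted p = 0.0503). Without ρ0 control library 1 the ρ0 value was -0.56 and without library 2 it was -1.08, both past the threshold. The difference between the responses was 0.24, with an interval from -0.33 to 0.82 (adjusted p = 0.464), 0.53 (adjusted p = 0.00297) without ρ0 control library 1 and -0.03 (0.862) without library 2.

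GLUD1, glutamate dehydrogenase, which releases ammonia from glutamate, rose modestly with starvation in both lines. Its level was 149 and 151 CPM in parental control, 203 and 202 CPM in parental starved, 108 and 112 CPM in ρ0 control and 141 and 135 CPM in ρ0 starved libraries. Starved libraries were above control libraries within each line, by 1.35-fold in parental cells (log2 fold change 0.43, SE 0.071, adjusted p = 0.00117) and by 1.25-fold in ρ0 cells (0.33, SE 0.071, adjusted p = 0.00938). The ρ0 call was lost without ρ0 starved library 1 (adjusted p = 0.0828), in the fit to the 4 ρ0 libraries (0.0722) and with limma-voom and group weights (0.0787). GLUD1 was lower in ρ0 than in parental cells both in full medium, by -0.45 (adjusted p = 0.00106), and starved, by -0.56 (adjusted p = 3.15e-04). GLUD2, a nearly identical copy, took between 24.5% and 27.8% of the summed GLUD1 and GLUD2 counts in the 8 libraries, so the split of reads between these genes is uncertain.

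GPT2, the mitochondrial alanine aminotransferase, which makes alanine and 2-oxoglutarate from pyruvate and glutamate, rose in both lines. It was at 37.7 and 42.7 CPM in parental control, 65.7 and 65.4 CPM in parental starved, 36.7 and 38.2 CPM in ρ0 control and 76.4 and 79.7 CPM in ρ0 starved libraries. All starved libraries exceeded all control libraries, by 1.63-fold in parental cells (log2 fold change 0.71, SE 0.089, adjusted p = 3.06e-04) and by 2.08-fold in ρ0 cells (1.06, SE 0.089, adjusted p = 2.31e-04). The difference between the responses was 0.35, with a 95% confidence interval from 0.06 to 0.65, and did not pass the adjustment over all genes (adjusted p = 0.0569). It passed with upper-quartile scaling (0.45, adjusted p = 0.0284), with total counts (0.44, adjusted p = 0.031), with a minimum of 10 counts in every library (0.36, adjusted p = 0.0461) and without ρ0 control library 1 (0.33, adjusted p = 0.00516) or 2 (0.35, adjusted p = 0.00378).

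**Figure D3:**
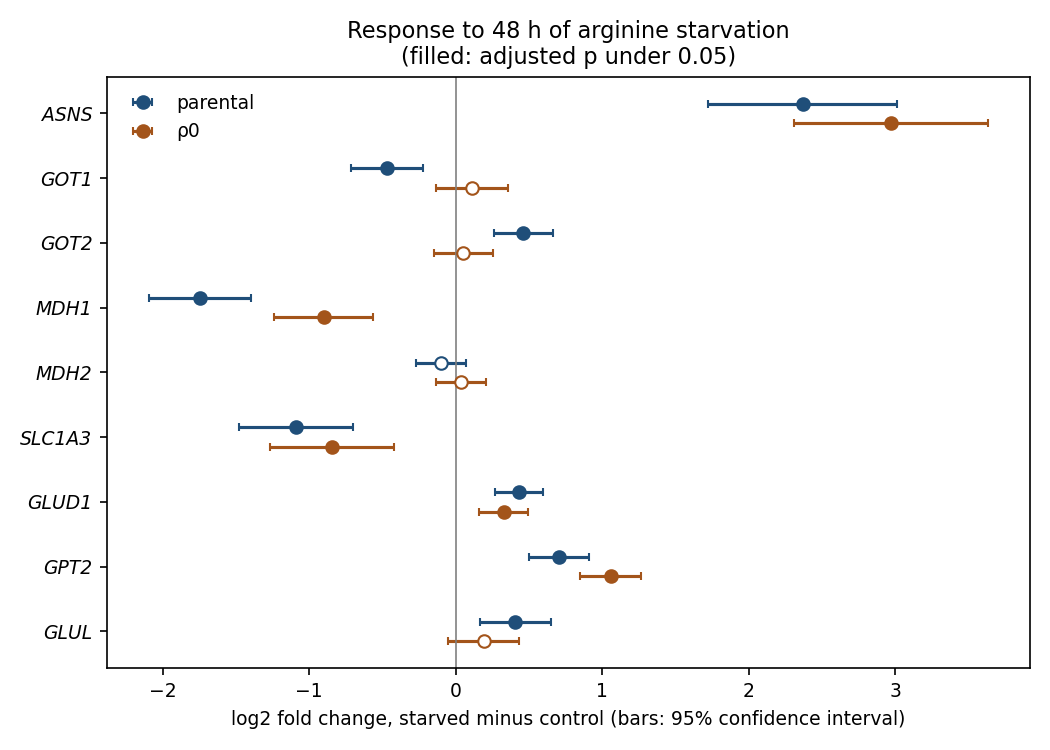
Log2 fold change from control to starved cells (horizontal axis) with its 95% confidence interval for each of the 9 genes in parental and ρ0 cells, filled where the adjusted p-value was under 0.05. ASNS rises by 2.37 and 2.97 and MDH1 falls by 1.75 and 0.90, whereas GOT1, GOT2 and GLUL passed the test in parental cells but not in ρ0 cells.

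When the 2 responses were compared directly, 3 of the 9 genes differed, with GOT1 and MDH1 higher and GOT2 lower in ρ0 relative to parental cells. Of all tested genes 21.6% were higher and 18.8% lower in this comparison. The median difference of the 9 genes was 0.24, beside 0.02 over all tested genes. For GLUL, which passed the test in parental cells only, the difference was -0.21 and did not pass the test (adjusted p = 0.279). It was -0.35 (adjusted p = 1.17e-04) without ρ0 control library 1 and -0.08 without library 2. The 2 responses and the 2 comparisons between the lines share libraries and are not independent of each other.

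Between the lines in full medium, SLC1A3, GOT2, MDH2 and GLUD1 were lower in ρ0 cells and GLUL was higher, against 30.5% of all tested genes higher and 31.8% lower. GOT2 differed by -0.55 (SE 0.087, adjusted p = 0.00104) and MDH2 by -0.51 (SE 0.074, adjusted p = 7.16e-04), so 3 of the 4 lower genes encode enzymes of the mitochondrial matrix. The median difference was -0.45 for the 9 genes and -0.01 for all tested genes. GPT2, also a matrix enzyme, differed by -0.10 (95% confidence interval -0.31 to 0.11, adjusted p = 0.355), and the cytosolic forms differed by -0.02 for GOT1 (-0.27 to 0.22) and by -0.18 for MDH1 (-0.51 to 0.16, adjusted p = 0.318). MDH1 was -0.43 (adjusted p = 9.05e-07) without ρ0 control library 1 and 0.10 without library 2.

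Between starved cells, GOT1, MDH1, GLUL and GPT2 were higher in ρ0 cells and GOT2, MDH2, SLC1A3 and GLUD1 lower, where 32.9% of all tested genes were higher and 33.5% lower. The cytosolic forms were thus higher, GOT1 by 0.56 (SE 0.11, adjusted p = 0.00228) and MDH1 by 0.67 (SE 0.15, adjusted p = 0.00467), and the mitochondrial forms lower, GOT2 by -0.96 (SE 0.087, adjusted p = 5.76e-05) and MDH2 by -0.37 (SE 0.074, adjusted p = 0.00303). GLUL differed by 0.34 (adjusted p = 0.0204) and GPT2 by 0.25 (adjusted p = 0.0349), and both calls were lost when any 1 of the 4 starved libraries was left out. Without ρ0 starved library 2 the call for MDH2 was lost as well (-0.30, adjusted p = 0.0567). The median was -0.0021 for the 9 genes and -0.01 for all tested genes.

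Per length of their exons, the 9 genes spanned a wide range of levels. In parental control cells the level was 123 CPM per kb for MDH1, 86.4 for GOT2, 85.1 for MDH2, 49.5 for GLUD1, 37.6 for GOT1, 31.9 for ASNS, 17.6 for GLUL, 12.0 for SLC1A3 and 8.99 for GPT2, all in CPM per kb. ASNS thus ranked behind each of the 4 shuttle enzymes and GLUD1 in full medium. In starved cells it had the highest level per length of the 9, at 165 CPM per kb in both lines, and MDH1 was at 36.7 CPM per kb in parental and 58.3 CPM per kb in ρ0 starved cells.

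The other genes of these pathways were described through 5 lists with 60 genes, of which 53 were tested. In parental cells 20 of the 53 rose, 16 fell and 17 did not pass the test, and in ρ0 cells 20 rose, 10 fell and 23 did not pass, beside the shares of all tested genes given above. Counts of this kind moved with the libraries used. The number of falling genes in parental cells was 25 without ρ0 control library 1, and in ρ0 cells it was 19 without that library and 6 without ρ0 starved library 2 or in the fit to the 4 ρ0 libraries, while the number of rising genes in ρ0 cells was 13 without ρ0 starved library 1. The 7 untested genes, ASPG, ASPA, GOT1L1, TAT, SLC1A2, SLC1A6 and SLC38A3, had at most 11 counts in any library.

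The list for transporters of aspartate, glutamate and glutamine, which also holds the neutral amino acid carrier SLC1A4, had the highest medians of the 5 lists. They were 1.19 in parental and 1.38 in ρ0 cells over 9 tested genes, of which 5 rose in each line while 2 fell in parental and 1 in ρ0 cells. SLC7A11, which exports glutamate in exchange for cystine, went from 96.0 and 83.4 CPM to 519 and 522 CPM in parental cells (log2 fold change 2.54, adjusted p = 9.12e-05). SLC1A5, the neutral amino acid carrier ASCT2, went from 182 and 189 to 859 and 819 CPM (2.18, adjusted p = 1.14e-05). These rises contrast with the fall of SLC1A3 and of its relative SLC1A1, which went from 12.5 and 11.6 to 1.19 and 1.24 CPM (-3.30, adjusted p = 4.05e-04). In ρ0 cells SLC1A4, a carrier of neutral amino acids, went from 13.8 and 19.1 to 78.2 and 80.6 CPM (2.27, adjusted p = 1.6e-04), and SLC38A2, a sodium-coupled glutamine carrier, rose by 1.84 (adjusted p = 4.65e-05). SLC1A4 and SLC38A2 also rose in parental cells, by 2.15 (adjusted p = 3.6e-05) and 1.19 (3.23e-05). SLC7A11 and SLC1A5 also rose in ρ0 cells, by 1.75 (adjusted p = 0.00144) and 1.77 (1.31e-04). SLC1A1 was at -0.48 in ρ0 cells (adjusted p = 0.383). SLC1A7 had 36 and 46 counts in parental control and 0 and 0 in parental starved libraries, a drop of at least 11.9-fold when 3 counts per library are taken as the floor, and fell by 1.99 in ρ0 cells (adjusted p = 0.0456).

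Among 6 mitochondrial carriers of aspartate, glutamate and malate, 2 rose and 2 fell in parental cells, and 1 rose and 2 fell in ρ0 cells, with medians of -0.13 and -0.15. SLC25A12, an aspartate-glutamate exchanger of the shuttle, fell by 0.85 in parental cells (37.1 and 36.6 to 21.8 and 19.2 CPM, adjusted p = 0.00292) and by 1.18 in ρ0 cells (27.9 and 39.6 to 15.4 and 14.4 CPM, adjusted p = 0.00166). SLC25A10, the dicarboxylate carrier, fell by 2.69 (adjusted p = 2.81e-05) and 2.31 (2.18e-04). The glutamate carrier SLC25A22 went the other way, by 1.86 in parental cells (adjusted p = 1.13e-04) and 0.78 in ρ0 cells (0.0135), as did its relative SLC25A18 in parental cells (1.07, adjusted p = 0.0149), which had at most 28 counts per library. The other exchanger of the shuttle, SLC25A13, and the malate carrier SLC25A11 had values of -0.13 and -0.14 in parental cells and -0.04 and -0.26 in ρ0 cells, none past the test.

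Of 14 tested genes listed for the use of aspartate or asparagine, 4 rose and 4 fell in parental cells, and 5 rose and 9 did not pass the test in ρ0 cells (medians -0.06 and 0.03). The list also holds ASL and ADSL, which cleave products formed with aspartate, and neither passed the test in either line. NARS and NARS2, the cytosolic and mitochondrial asparaginyl-tRNA synthetases, rose in parental cells by 0.87 (adjusted p = 6.65e-05) and 0.60 (5.18e-04). In ρ0 cells they rose by 0.88 (adjusted p = 2.65e-04) and 1.05 (2.17e-04). In parental cells ADSSL1, an adenylosuccinate synthase, went from 29 and 33 to 12 and 10 counts (-1.27, adjusted p = 0.0152), and DDO, D-aspartate oxidase, from 17 and 16 to 0 and 1 counts, at least 4.73-fold lower. ASS1, which consumes aspartate to make argininosuccinate, had 10 and 3 counts in parental control and 1 and 2 counts in parental starved libraries. In ρ0 cells it had 183 and 358 counts in control and 684 and 538 counts in starved libraries (1.34, adjusted p = 0.00859). The full-medium difference in ASS1, ρ0 minus parental, was 5.40 (adjusted p = 4.32e-05), though it rests on 10 and 3 parental counts. NAT8L, which acetylates aspartate, was at 1.98 and 6.05 CPM in ρ0 control and at 10.1 and 9.98 CPM in ρ0 starved libraries (1.32, adjusted p = 0.031). Its parental level was far higher, at 52.8 and 54.3 CPM in control and 59.8 and 55.0 CPM in starved libraries. In full medium the difference, ρ0 minus parental, was -3.73 (adjusted p = 1.42e-04).

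The list for glutamine use was divided, with 4 of 12 genes rising and 4 falling in each line (medians -0.21 in parental and -0.01 in ρ0 cells). EPRS, counted among the rising genes in both lines, joins glutamate and proline to tRNA and does not spend glutamine. PPAT, the first enzyme of purine synthesis, went from 54.1 and 52.0 to 150 and 166 CPM in parental cells (1.58, adjusted p = 2.21e-04). In ρ0 cells PPAT rose by 0.80 (adjusted p = 0.0114). GFPT1, which starts hexosamine synthesis, rose by 1.12 in parental (adjusted p = 2e-04) and by 1.64 in ρ0 cells (2.02e-04). Its paralog GFPT2 fell in parental cells from 144 and 149 to 13.1 and 12.8 CPM (-3.50, adjusted p = 6.47e-06) but rose in ρ0 cells from 92.5 and 71.8 to 142 and 143 CPM (0.79, adjusted p = 0.00192), a difference between the responses of 4.29 (adjusted p = 3.6e-05). QARS, glutaminyl-tRNA synthetase, fell by 2.66 in parental (adjusted p = 6.64e-06) and by 1.40 in ρ0 cells (1.6e-04), unlike NARS and EPRS. EPRS, the synthetase for glutamate and proline, rose by 0.57 in parental (adjusted p = 2.45e-04) and by 0.88 in ρ0 cells (1.9e-04). CTPS2, a CTP synthase, fell by 1.003 in ρ0 cells (adjusted p = 9.67e-04).

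Among other glutamate transaminases and dehydrogenases, 5 of 12 rose and 4 fell in parental cells, and 5 rose and 3 fell in ρ0 cells (medians -0.04 and -0.06). PSAT1, the aminotransferase of serine synthesis, went from 77.9 and 80.7 to 235 and 246 CPM in parental cells (1.60, adjusted p = 0.00299) and from 70.7 and 160 to 486 and 499 CPM in ρ0 cells (2.09, adjusted p = 0.00219). ALDH18A1, which turns glutamate toward proline, rose by 0.88 in parental (adjusted p = 4.51e-05) and by 0.43 in ρ0 cells (0.00335). ALDH4A1, which works in the opposite direction, fell by 0.81 in parental (adjusted p = 0.00119) and by 0.88 in ρ0 cells (0.00264). CCBL1, a glutamine transaminase, fell by 3.09 (adjusted p = 1.15e-05) and 1.05 (0.00189). GPT, the cytosolic alanine aminotransferase, rose by 0.87 in parental (adjusted p = 0.00758) and by 1.18 in ρ0 cells (0.00582), with at most 62 counts in any library. MDH1B, counted among the falling genes of parental cells, is related to malate dehydrogenases and is no glutamate enzyme. It had 29 and 30 counts in parental control and 0 and 0 in parental starved libraries, at least 8.49-fold lower.

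**Figure D4:**
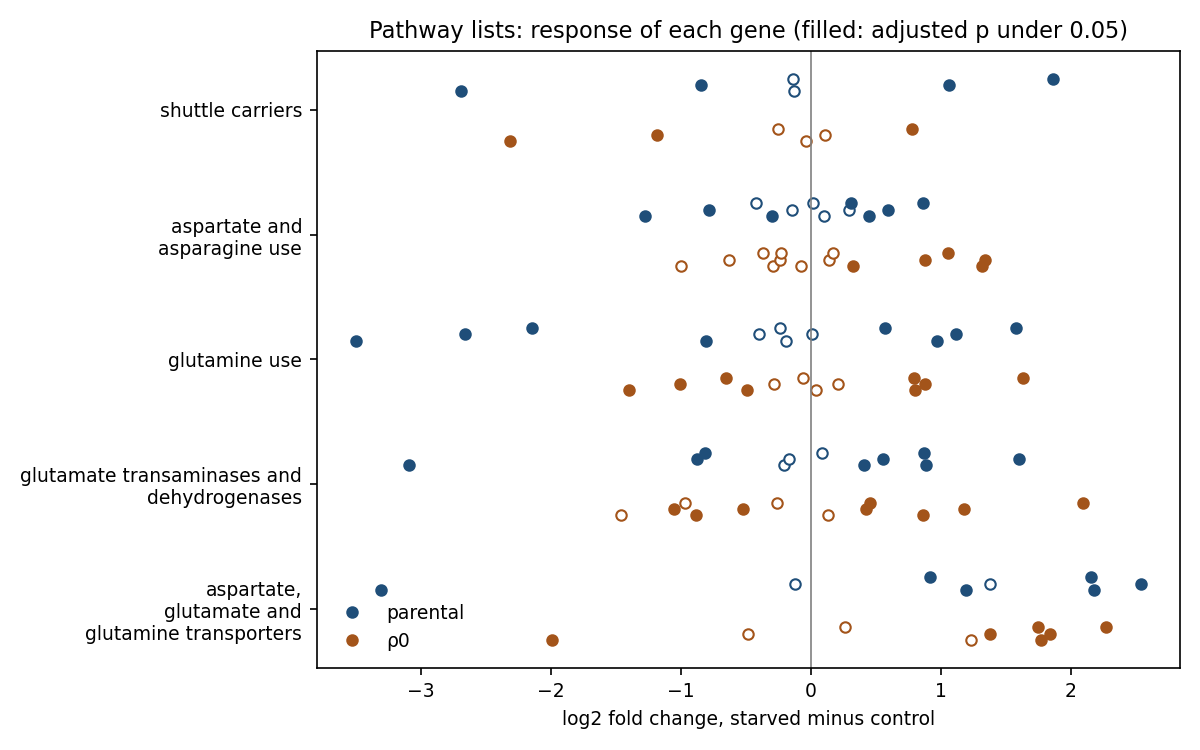
Log2 fold change from control to starved cells (horizontal axis) of the tested genes of 5 pathway lists in parental and ρ0 cells, filled where the adjusted p-value was under 0.05, without the 4 genes near 0 counts in parental starved cells (ASS1, DDO, MDH1B and SLC1A7), whose parental points are not drawn. The transporters lie mostly to the right, with medians of 1.19 and 1.38, and the other lists spread to both sides of 0.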

How the data were processed

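RNA was sequenced from 8 samples, 2 for each of 4 groups, which were taken from the sample titles. The authors deposited the raw, unnormalized counts of reads for each gene symbol in 1 table. The submitters' processing notes name Bowtie, Partek and hg19, while versions, the annotation and strand handling are not given in the sources used here. Symbols were therefore used without hg19 coordinates, and overlapping or near-identical genes such as GLUD1 and GLUD2 may share reads.

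The analysis used edgeR 4.0.16 in R 4.3.3. Genes were kept by filterByExpr (15262 of 23393), libraries were scaled by TMM, and a quasi-likelihood model with a mean for each group was fitted over the 8 libraries together (4 residual degrees of freedom, prior 3.40, common biological coefficient of variation 12.4%). Contrasts were starved minus control in each line, their difference as an interaction, and ρ0 minus parental in full medium and in starved cells. The Benjamini-Hochberg adjustment ran over all tested genes, with a threshold of 0.05. Standard errors were obtained from log2 fold changes and their F statistics. Isoenzyme ratios were compared by an exact permutation test of the shift averaged over both lines, with treatment permuted within line. Levels per length used exons of the reference GENCODE annotation, matched by symbol, which is of another build than the counts. Promoters and their build (GRCh38.p14) come from RefSeq. Depth was 25259503 to 31022155 counts per library, and with 2 libraries per group precision is limited by their number. The scripts were tested on simulated data.

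All 9 genes are named. Of each pathway list, those named for each starvation response are the significant genes with the 2 largest positive and the 2 largest negative log2 fold changes, and for ASNS the 5 genes most correlated with it. The 2 shuttle carriers that did not pass the test were named after their values were seen. The members and lists were chosen with earlier results of these data known. Results were recomputed with scaling by upper quartile, by total counts or by DESeq2's size factors, no filter, at least 10 counts in every library, DESeq2 1.42.0, limma-voom (limma 3.58.1) with and without group weights, a block for the replicate number, models of only the 4 libraries compared, an adjusted p-value under 0.01 and leaving out each library. Counts over the pathway lists under these alternatives were added after seeing the data. Fold changes of ATF4 and of single genes of these lists were not recomputed under them. Fold changes of genes with at most 3 counts in each library of a group are given as bounds against a floor of 3 counts per library, which covers counting error only.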

Additional observations from a re-analysis of the deposited data

Results flagged for a closer look

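The response to arginine starvation differed between the lines, by the interaction term of edgeR's fit, for 3 of the 9 genes, 2 higher and 1 lower in ρ0 cells, where 21.6% of all tested genes were higher and 18.8% lower, so the count is no larger than the background. GOT1 fell in parental cells (-0.47) and was at 0.11 in ρ0 cells, a difference of 0.58 on the log2 scale (adjusted p = 0.0184). For GOT2, which rose in parental cells (0.46) and was at 0.05 in ρ0 cells, the difference was -0.41 (adjusted p = 0.0327). MDH1 fell in both lines, by less in ρ0 cells, with a difference of 0.84 (adjusted p = 0.0152). All 3 calls were lost when parental control library 2 or any of the 4 starved libraries was left out, with adjusted p from 0.0521 to 0.13.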

How the results depend on the processing

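For the 45 values of the 9 genes (9 genes in 5 comparisons), 846 values were computed under alternative settings, of which 759 kept their direction and their side of the threshold, 44 lost significance, 21 gained it and 22 changed sign. No called value changed sign. With total counts the ρ0 responses of GOT2 and MDH2 were -0.025 and -0.043. In full medium GOT1 differed between the lines by 0.0017 with no filter. ASNS in starved cells, ρ0 minus parental, was 0.0066 with DESeq2's size factors and in DESeq2's test, 0.068 with the upper quartile, 0.035 with no filter and 0.029 in the fit to the 4 libraries, and from -0.014 to 0.030 with 1 library left out. Leaving out 1 library also turned the ρ0 responses of GOT1 (-0.015 to 0.26) and GOT2 (-0.041 to 0.17), the difference between responses of SLC1A3 (-0.033 to 0.53), and the full-medium differences of GOT1 (-0.11 to 0.11) and MDH1 (-0.43 to 0.10). The number of the 9 genes lower in starved ρ0 cells was 1 with group weights and in the fit to the 4 libraries, and 1 to 2 with 1 library left out, and the number higher was 2 to 6. For the difference between responses, 0 genes were lower with the upper quartile or total counts, and 0 were higher or lower at an adjusted p under 0.01, where edgeR gave 3 higher and 1 lower at an unadjusted p under 0.05, as did DESeq2 and limma-voom. With 1 library left out these counts were 0 to 5 higher and 0 to 2 lower (2 to 5 and 0 to 2 unadjusted). Between starved cells 2 genes were higher at an adjusted p under 0.01, and 2 to 4 with 1 library left out. With a ρ0 control library left out, the lone library is assumed to vary like the other groups, and the spread of 25.1% between these libraries leaves the estimate. Over the 5 pathway lists, the number of genes with a higher response in ρ0 cells (15) ranged from 6 to 24 with 1 library left out, and the number with a lower response (5) from 0 to 16. The labels do not say that a replicate number marks a shared batch. Deviations of same-numbered libraries from their group means were nearly uncorrelated over the tested genes (from -0.05 to 0.04 over 6 pairs of groups). Noise in single genes can hide a shared part in such correlations, so a shared batch cannot be judged from them. A fit with the replicate block called 5 of the 9 genes higher and 3 lower in parental cells and 3 higher and 2 lower in ρ0 cells, and changed no call. The cause of these shifts was not tested.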
